A study of Saccharomyces cerevisiae with 9 samples.

Results

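Expression in yeast cells given GC of hen of the woods (HenGC) was set against expression in yeast cells given GC of soybean (SoyGC). All samples with either label were taken: 3 HenGC arrays and 3 SoyGC arrays, which makes 6 of the 9 arrays of the series. The other 3 arrays were vehicle controls, whose levels are given as a description. All cells were BY4743, a diploid laboratory strain of Saccharomyces cerevisiae. Both preparations were used at 40 ug/ml for 17 h, so the comparison is matched in dose and time and holds 1 pair of preparations. The labels give no dose, time or agent for the vehicle. The question the comparison answers is where 2 preparations from different organisms left the cells with different RNA levels.

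Hen of the woods is an edible polypore mushroom. The labels do not spell out GC, which in work on sphingolipids commonly means glucosylceramide, a ceramide that carries 1 glucose. Fungal glucosylceramides typically carry a methyl branch on the sphingoid base that plant glucosylceramides lack, but nothing used here gives the composition of these preparations. Baker's yeast has no glucosylceramide synthase and builds its own complex sphingolipids with inositol phosphate head groups. After growth on glucose, yeast reorganises expression: genes for the use of lactate, acetate and fatty acids, for reserve carbohydrates and for stress protection are induced, while genes for ribosome assembly and cell division are turned down. Many of the genes described here belong to that switch, and glucose represses several of them.

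Signal was high on the 6 arrays, with 92.4% to 95.8% of 43792 spots well above background and 0 saturated spots. As a check of the strain, the marker genes HIS3, LEU2 and URA3, which BY4743 lost, gave signal above background on 0 of 9 arrays, and LYS2 and MET17, each with 1 intact copy, on 9 of 9. Genes of haploid cells and mating summed to 1.79 to 1.94 in HenGC, 1.71 to 1.85 in SoyGC and 2.06 to 2.10 in vehicle (linear signal relative to the 75th percentile of each array). Of their 31 probes, 23 to 29 were above background on a HenGC array and 24 to 29 on a SoyGC array. Only 2 of the 31 genes, PRM3 and PRM6, were above background on 0 of the 6 arrays. Meiosis genes summed to 2.37 to 2.65 in HenGC, 2.43 to 2.55 in SoyGC and 2.35 to 2.69 in vehicle, and 8 of 47 were above background on 0 of the 6. HenGC 1 and 2 shared slide 2 and SoyGC 1 and 2 shared slide 1, so outside slide 3, which held HenGC 3 and SoyGC 3, slide and group cannot be told apart. The difference within slide 3 is therefore given beside the main results, as 1 array against 1 with no test. Vehicle 1 and 2 were on slide 1 with SoyGC 1 and 2, and vehicle 3 was on slide 3. HenGC 1 and 2 thus shared no slide with vehicle. Outside slide 3, how near a preparation lay to vehicle cannot be told apart from slide.

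No gene passed the threshold. Of 5747 genes tested with limma, 0 (0%) had a Benjamini-Hochberg adjusted p under 0.05, and the smallest adjusted p was 0.21, shared by 11 genes. Before adjustment, 462 genes (8.04%) with p under 0.05 were higher in HenGC and 353 (6.14%) lower. The 3 HenGC arrays all lay above the 3 SoyGC arrays for 601 genes (10.5%) and all below them for 640 (11.1%). The differences themselves were mostly small: 90% of genes lay between -0.29 and 0.41 on the log2 scale, with a median of 0.01. The 95% interval of a gene's difference reached 0.27 to either side in the median gene and 0.23 to 0.35 over the middle 50% of genes. Whether the arrays came from separate cultures is not in the labels, and the spread that the p-values measure may therefore be technical. Since no gene passed, every value below is a measured difference with its interval and not a call.

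**Figure D1:**
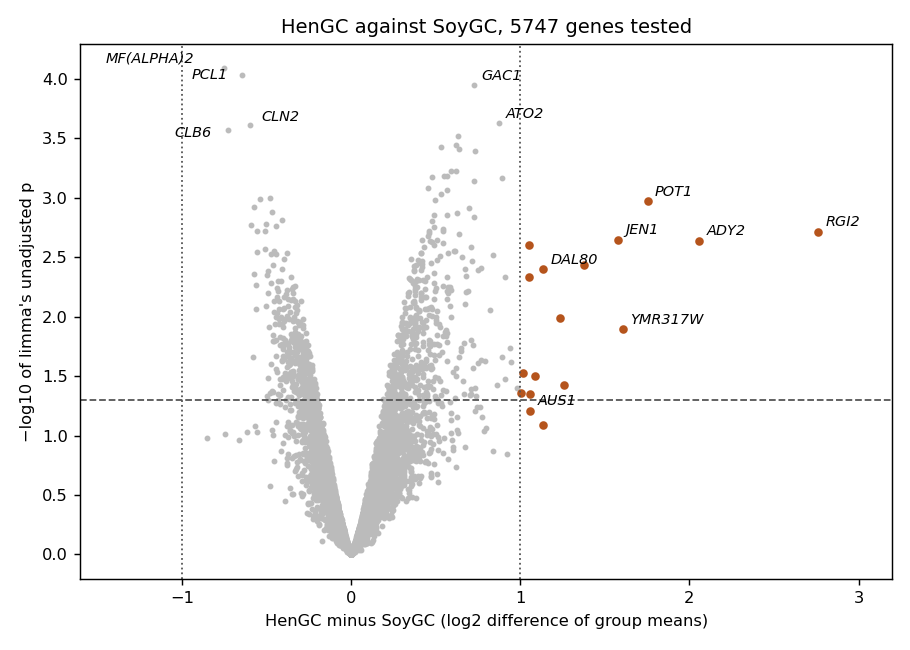
Each point is 1 of 5747 genes, placed by its HenGC minus SoyGC difference (log2, horizontal) and by −log10 of the unadjusted p of limma (vertical). Dotted lines mark 2-fold, the dashed line marks the unadjusted threshold of 0.05, and the 17 orange points are genes at 2-fold or more, all of them on the HenGC side.

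The large differences all lay on one side. At 2-fold or more, 17 genes were higher in HenGC and 0 were lower. The groups did not overlap for 10 of the 17, beside 10.5% of all genes with HenGC higher. These 17 genes were picked by this difference, which itself favours groups that do not overlap, so their values are a description. They were RGI2 (2.76), ADY2 (2.06), POT1 (1.75), YMR317W (1.61), JEN1 (1.58), YGR067C (1.38), IZH4 (1.26), SPG4 (1.23), HES1 (1.13), DAL80 (1.13), INA1 (1.08), FHN1 (1.06), AUS1 (1.06), DAN4 (1.05), MPC3 (1.05), YMR007W (1.01) and FBP1 (1.00), as log2 differences with adjusted p of 0.246 to 0.403. In all 17 SoyGC had the lowest mean of the 3 groups. In 14 of them the HenGC mean lay between the SoyGC and vehicle means, a place it held in 41.9% of all genes. Choosing genes high in HenGC relative to SoyGC fixes part of that order.

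The list of genes for uptake and use of lactate, acetate and pyruvate and for respiratory growth held 4 of these 17 genes, among them the largest differences, those of RGI2 and ADY2. Of 15 genes tested, 7 (46.7%) were higher in HenGC at an unadjusted p under 0.05 and 0 were lower. These stand beside 8.04% and 6.14% of all genes. The median difference was 0.23, beside 0.01 over all genes, and 0.40 within slide 3. RGI2, a gene needed for normal energy metabolism in respiring cells, stood at -2.48, -4.12 and -5.29 on HenGC 1 to 3, against -6.85, -6.51 and -6.82 on SoyGC 1 to 3 and -2.72, -2.77 and -3.00 on the vehicle arrays (log2 relative to the 75th percentile). All HenGC arrays lay above all SoyGC arrays, and HenGC 1 reached the vehicle level while HenGC 3 did not. The fold was 6.79 (log2 2.76 ± 0.60, SE, n = 3 per group, 95% interval 1.37 to 4.15, adjusted p = 0.247), and the slide 3 difference was 1.53. Without HenGC 1 the log2 difference was 2.02, and without HenGC 3 it was 3.43.

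ADY2, an acetate permease, stood at -3.97, -6.07 and -5.26 in HenGC, against -7.17, -6.92 and -7.39 in SoyGC and -3.48, -3.08 and -3.45 in vehicle. The groups did not overlap, and HenGC spread over a wide range below vehicle. Its difference was 2.06 ± 0.46 (95% interval 0.99 to 3.13, adjusted p = 0.247) and 2.13 within slide 3. JEN1, the permease for lactate and pyruvate, stood at -1.68, -3.29 and -2.35 in HenGC, against -3.99, -3.89 and -4.19 in SoyGC and -1.02, -1.02 and -0.43 in vehicle. It followed the same order of groups, with no overlap among them. The difference was 1.58 ± 0.35 (95% interval 0.76 to 2.40, adjusted p = 0.247) and 1.84 within slide 3.

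ATO2, a relative of ADY2 in ammonium export, had tight groups at -2.13, -2.61 and -2.43 in HenGC, -3.16, -3.33 and -3.29 in SoyGC and -2.66, -2.79 and -2.27 in vehicle. HenGC and vehicle overlapped while SoyGC lay apart, and the HenGC minus SoyGC difference of 0.87 ± 0.14 had an adjusted p of 0.21. MPC3, the mitochondrial pyruvate carrier subunit used in respiring cells, stood at 1.28, 0.43 and 0.35 in HenGC, against -0.54, -0.34 and -0.22 in SoyGC and 0.58, 0.46 and 0.81 in vehicle, a difference of 1.05 ± 0.24. Its partners did not share that size: MPC1 differed by 0.12 (95% interval -0.33 to 0.58) and MPC2, the subunit used in fermenting cells, by 0.03 (-0.31 to 0.38). The lactate dehydrogenases were also unequal, with CYB2 at 0.49 (0.12 to 0.87), DLD1 at 0.10 (-0.19 to 0.39), DLD2 at -0.15 (-0.39 to 0.08) and DLD3 at -0.02 (-0.32 to 0.29). Among the rest, RGI1, the relative of RGI2, differed by 0.23 (-0.01 to 0.48), the phosphatase subunit REG2 by 0.73 (0.04 to 1.42, or 0.34 without SoyGC 1), CSR2 by 0.21 (-0.26 to 0.68) and ATO3 by -0.14 (-0.61 to 0.33).

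**Figure D2:**
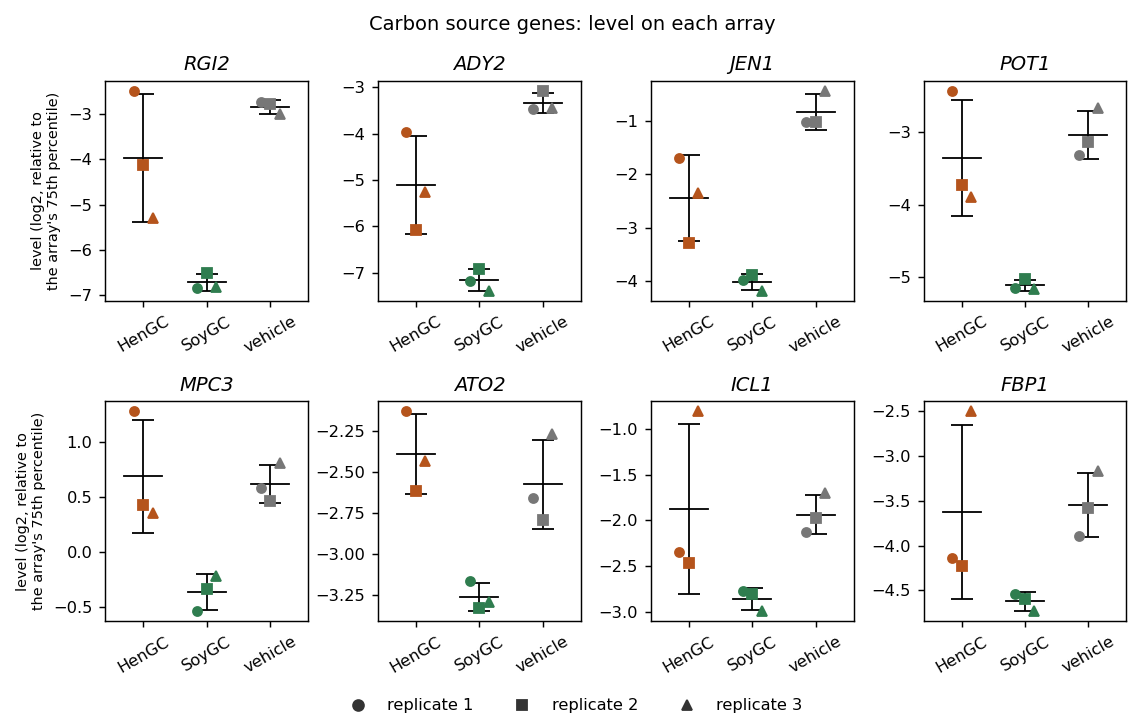
Levels of 8 carbon source genes (log2 relative to the 75th percentile of the array) in HenGC, SoyGC and vehicle, with a symbol per array by replicate number, the mean as a long bar and ±1 SD as the error bar (n = 3). SoyGC lay lowest in every panel, and HenGC 3 carried the high values of ICL1 (-0.81) and FBP1 (-2.50).

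Genes of the glyoxylate cycle and gluconeogenesis let cells build sugar from acetate. At an unadjusted p under 0.05, 12 of 25 (48%) were higher in HenGC and 0 lower, beside 8.04% and 6.14% of all genes. The median was 0.38 (0.47 within slide 3). FBP1, the fructose bisphosphatase of gluconeogenesis, stood at -4.14, -4.23 and -2.50 in HenGC, against -4.54, -4.60 and -4.74 in SoyGC and -3.89, -3.58 and -3.17 in vehicle. ICL1, the isocitrate lyase, stood at -2.35, -2.47 and -0.81 in HenGC, against -2.77, -2.80 and -2.99 in SoyGC and -2.13, -1.98 and -1.70 in vehicle. In both genes HenGC 3 alone lay far above the rest of its group. ICL1 was singled out after its values were seen, because these were the 2 genes that passed in limma when slide was a fixed block (differences 2.23 for FBP1 and 2.18 for ICL1, adjusted p = 0.0333 each), a fit whose contrast rests on HenGC 3 and SoyGC 3. Over the 3 arrays of each group the differences were 1.00 ± 0.42 for FBP1 and 0.98 ± 0.40 for ICL1, with adjusted p of 0.346 and 0.338. Without HenGC 3 they were 0.44 for FBP1 and 0.45 for ICL1. The carnitine carrier gene CRC1 (0.71 ± 0.16), the acetyl-CoA synthetase gene ACS1 (0.42 ± 0.10), the activator gene CAT8 (0.50 ± 0.13) and ACH1, an enzyme of acetyl-CoA (0.39 ± 0.11), had narrower intervals with adjusted p of 0.247 to 0.264, and the groups did not overlap.

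Peroxisomal fatty acid oxidation followed, with 8 of 23 genes higher and 1 lower at an unadjusted p under 0.05. These stand beside 8.04% and 6.14% of all genes. The median was 0.25, and 0.07 within slide 3. POT1, the thiolase that closes each round, stood at -2.44, -3.73 and -3.90 in HenGC, against -5.14, -5.02 and -5.17 in SoyGC and -3.32, -3.14 and -2.67 in vehicle. HenGC 1 lay above every other array, and SoyGC lay below all of them. The fold was 3.37 (log2 1.75 ± 0.34, 95% interval 0.95 to 2.55, adjusted p = 0.246), and the slide 3 difference was 1.27. PXA1, a subunit of the peroxisomal fatty acid importer, differed by 0.48 ± 0.14, the dienoyl-CoA reductase gene SPS19 by 0.35 ± 0.10 and FOX2, which encodes the enzyme of the middle steps, by 0.32 ± 0.10.

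Genes downstream in respiration had smaller medians, and their counts stand beside 8.04% of all genes higher and 6.14% lower. In the nuclear genes of the respiratory chain and ATP synthase, 8 of 41 were higher and 0 lower at an unadjusted p under 0.05, with a median of 0.14. Examples are SDH1, of succinate dehydrogenase (0.31 ± 0.09), and NDE2, an external NADH dehydrogenase (0.46 ± 0.13). In the tricarboxylic acid cycle 4 of 14 were higher and 1 lower, with a median of 0.14, and the citrate synthase gene CIT1 was at 0.32 ± 0.10. Mitochondrial ribosomal proteins (75 tested, median 0.01) and the protein genes of the mitochondrial genome (8 tested, median -0.08) each had 0 members at an unadjusted p under 0.05 in either direction, and both medians took the other sign in at least 1 other setting.

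Stress genes as a group stood higher in HenGC. Of 48 genes of the general stress response, which the factors Msn2 and Msn4 drive, 25 (52.1%) were higher at an unadjusted p under 0.05 and 0 were lower, beside 8.04% higher over all genes. In 30 of the 48 all HenGC arrays lay above all SoyGC arrays, beside 10.5% of all genes. Their median was 0.35 (0.38 within slide 3), and 47 of 48 had a positive difference, beside 52.8% of all genes. Averaged over members, HenGC stood at 0.19, 0.15 and 0.21, against -0.27, -0.05 and -0.23 in SoyGC and -0.31, -0.32 and -0.40 in vehicle (log2 relative to the mean of the 6 HenGC and SoyGC arrays). Here HenGC was the group farthest from vehicle, while for the lactate and acetate list SoyGC was. HenGC 1 and 2 shared no slide with vehicle, so outside slide 3 this order cannot be told apart from slide.

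Members of the stress list did not all follow that order of means. XBP1, a repressor made in starved cells, stood at -2.89, -2.94 and -3.10 in HenGC, against -3.32, -3.66 and -3.91 in SoyGC and -2.57, -2.55 and -2.36 in vehicle, a difference of 0.66 ± 0.15. HSP104, which pulls proteins out of aggregates, stood at 3.22, 3.21 and 3.07 in HenGC, against 2.31, 2.86 and 2.63 in SoyGC and 2.85, 2.80 and 2.08 in vehicle, a difference of 0.57 ± 0.14. Vehicle lay above both preparations for XBP1 and overlapped SoyGC for HSP104. PHM7, a membrane protein gene of unknown role, differed by 0.77 ± 0.19, and FMP45, of the Sur7 family of eisosome proteins, by 0.67 ± 0.17. Adjusted p of these 4 genes was 0.25 in limma.

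Trehalose and glycogen genes build and use the reserve carbohydrates. At an unadjusted p under 0.05, 11 of 21 (52.4%) were higher and 0 lower, beside 8.04% and 6.14% of all genes. The median was 0.38 (0.44 within slide 3). GAC1 encodes the subunit that directs the phosphatase Glc7 to glycogen synthase. It stood at -0.24, -0.45 and -0.40 in HenGC, against -0.98, -1.16 and -1.14 in SoyGC and -0.37, -0.67 and -0.22 in vehicle. HenGC and vehicle overlapped and SoyGC lay below both. The difference of 0.73 ± 0.10 (95% interval 0.49 to 0.96) was among those with the smallest adjusted p, 0.21, and it stayed between 0.64 and 0.80 over 22 settings. TSL1, a trehalose synthase subunit, differed by 0.54 ± 0.12, the glycogen synthase gene GSY1 by 0.43 ± 0.11 and the branching enzyme gene GLC3 by 0.50 ± 0.13.

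**Figure D3:**
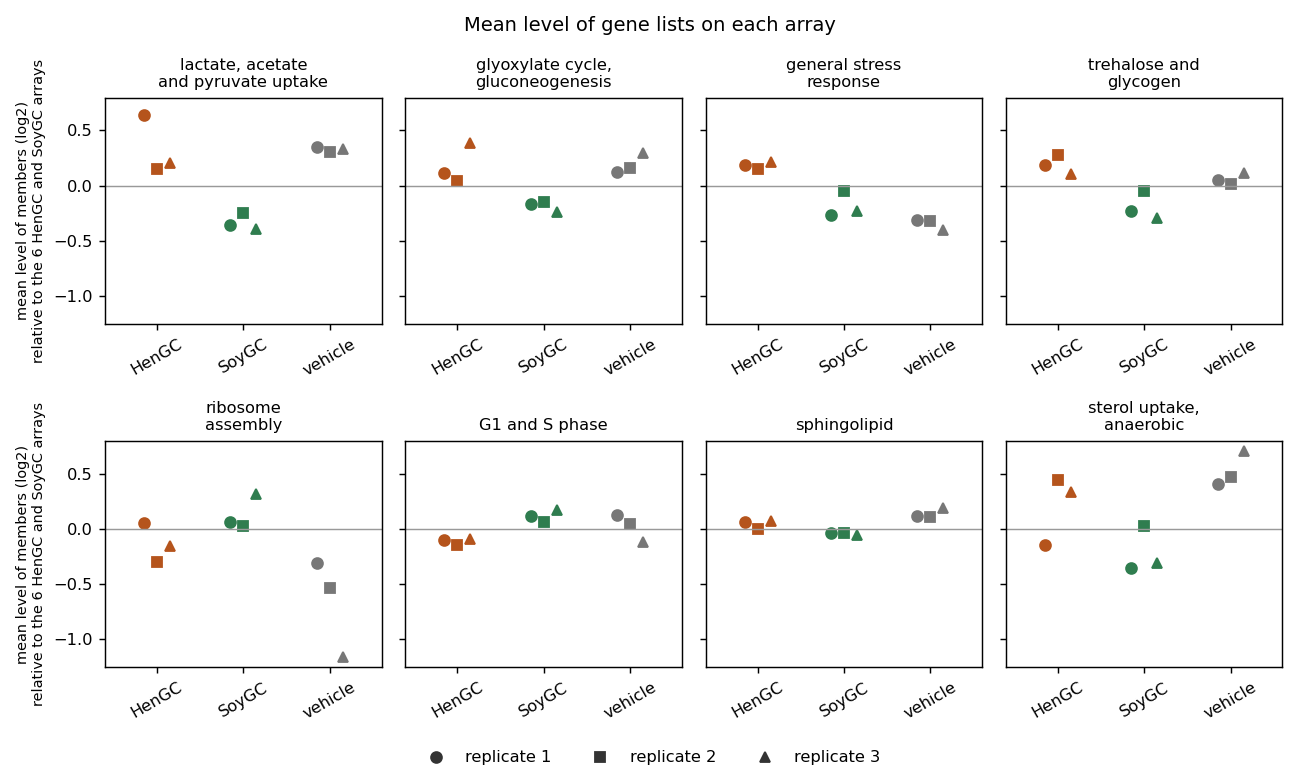
Mean level of the members of 8 gene lists on each array (log2, each gene relative to its mean over the 6 HenGC and SoyGC arrays), with a symbol per array by replicate number. In the stress panel HenGC (0.15 to 0.21) lay above SoyGC (-0.27 to -0.05) and vehicle (-0.40 to -0.31), while in the ribosome assembly panel HenGC 1 (0.05) lay among the SoyGC arrays (0.02 to 0.32).

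Sterol uptake and anaerobic genes came next. Yeast imports sterol when it lacks oxygen or heme, and the same state induces wall mannoproteins of the DAN and TIR families. Of 26 genes tested, 9 (34.6%) were higher in HenGC at an unadjusted p under 0.05 and 0 were lower, beside 8.04% and 6.14% of all genes. The median was 0.31 (0.44 within slide 3). AUS1, a sterol importer of the ABC family, stood at -0.08, 1.45 and 1.18 in HenGC, against -0.85, 0.69 and -0.48 in SoyGC and 1.31, 1.46 and 1.85 in vehicle. HenGC 1 lay below SoyGC 2, so the groups overlapped, and the difference of 1.06 ± 0.48 had an interval of -0.07 to 2.18.

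Most of the other large members showed the same spread. PDR11, the second importer, differed by 0.80 ± 0.41 (-0.15 to 1.75) and PBI1 by 0.84 ± 0.50 (-0.33 to 2.01). The membrane protein gene IZH4 differed by 1.26 ± 0.50 (0.09 to 2.42) and the NCE102 relative FHN1 by 1.06 ± 0.44 (0.03 to 2.09). HEM13, a heme synthesis gene induced when oxygen is low, differed by 0.95 ± 0.34 (0.16 to 1.73). In each of these 5 genes the groups overlapped. Without HenGC 1 the differences were larger for PDR11 (1.25), PBI1 (1.45) and FHN1 (1.60), and without HenGC 2 that of PBI1 was 0.34. TIR2 had tighter groups, at 4.23, 4.35 and 4.01 in HenGC, against 3.72, 3.71 and 3.52 in SoyGC and 3.91, 4.05 and 4.15 in vehicle. For TIR2 the 2 preparations did not overlap (0.55 ± 0.12, adjusted p = 0.247), and neither did they for DAN4 (1.05 ± 0.27), TIR4 (0.50 ± 0.15) or DAN1 (0.50 ± 0.15).

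The sterol regulators had wide intervals that included 0, with UPC2 at 0.36 (-0.33 to 1.04, with 0.09 without HenGC 2 and 0.71 without HenGC 1), ECM22 at 0.14 (-0.13 to 0.41), SUT1 at 0.03 (-0.46 to 0.52) and the repressors MOT3 at -0.29 (-0.78 to 0.20) and ROX1 at 0.10 (-0.74 to 0.93). The 24 seripauperin genes are near-identical subtelomeric relatives of the TIR genes, and their signals cannot be assigned to single copies. At an unadjusted p under 0.05, 2 of the 24 (8.33%) were higher, near the 8.04% of all genes. None were lower, beside 6.14% of all genes, and the median of the family was 0.32. On HenGC 1 to 3 their mean was -0.20, 0.28 and 0.38, against -0.40, -0.02 and -0.04 on SoyGC 1 to 3 and 0.45, 0.43 and 0.87 on the vehicle arrays. HenGC 1 thus lay among the SoyGC arrays for this family.

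The cell's own sphingolipid genes differed little between the preparations. Of 47 genes tested, 4 were higher and 0 lower at an unadjusted p under 0.05, shares to be read beside 8.04% and 6.14% of all genes, and differences ran from -0.28 to 0.67. The median was 0.08. At the first step, LCB1, a serine palmitoyltransferase subunit, stood at 0.36, 0.32 and 0.47 in HenGC, against 0.63, 0.50 and 0.67 in SoyGC and 0.53, 0.56 and 0.78 in vehicle. HenGC lay below SoyGC on every array, with a difference of -0.22 (-0.44 to 0.00) and an adjusted p of 0.352. Its partner LCB2 differed by -0.03 (-0.30 to 0.23), their small activator TSC3 by 0.17 (-0.27 to 0.60), and the inhibitors ORM1 and ORM2 by -0.04 (-0.27 to 0.19) and 0.15 (-0.19 to 0.49). Ceramide synthase genes were at -0.17 (-0.42 to 0.09) for LAG1, 0.05 (-0.17 to 0.27) for LAC1 and -0.08 (-0.41 to 0.26) for LIP1. These intervals exclude a 2-fold difference in either direction.

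Further along the pathway, AUR1, which makes inositol phosphorylceramide, stood at -0.11, -0.26 and -0.18 in HenGC, against 0.13, -0.10 and 0.05 in SoyGC and -0.03, -0.08 and 0.29 in vehicle, a difference of -0.21 (-0.44 to 0.02). The elongases ELO2 and ELO3 of very long chain fatty acids differed by -0.28 (-0.57 to 0.00) and -0.23 (-0.45 to 0.00), while PHS1, the dehydratase of the same cycle, differed by 0.30 (0.05 to 0.55). The members above 0 with intervals that excluded it were FMP45, PHS1, the long-chain base phosphate phosphatase YSR3 (0.51, 0.05 to 0.97) and the ceramidase YDC1 (0.32, 0.03 to 0.61, or 0.20 without SoyGC 3). EGH1, which cleaves glucose from steryl glucosides, differed by 0.23 (-0.21 to 0.68). The kinases that act in membrane stress were at 0.08 (-0.16 to 0.32) for YPK1, 0.34 (-0.04 to 0.73) for YPK2 and 0.28 (-0.11 to 0.67) for PKH1, and the eisosome cores PIL1 and LSP1 at 0.01 (-0.19 to 0.21) and 0.16 (-0.05 to 0.38).

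Other lipid lists lay near the median of all genes, and their counts stand beside 8.04% of all genes higher and 6.14% lower. Ergosterol synthesis had 2 of 30 genes higher and 1 lower at an unadjusted p under 0.05 (median 0.05), with HMG1 and HMG2, the 2 reductases at the start of the pathway, at -0.48 ± 0.20 (-0.28 without HenGC 2) and 0.36 ± 0.14. Fatty acid and phospholipid synthesis had 3 of 37 in each direction (median 0.04), among them the inositol synthase gene INO1 at -0.58 ± 0.20 and the acyltransferase gene GPT2 at 0.49 ± 0.13. Lipid flippases and drug pumps had 4 of 25 higher and 0 lower (median 0.04), with the flippase kinase gene KIN82 at 0.72 ± 0.24, or 0.41 without SoyGC 1. SoyGC 1 (-4.15) was the lowest of the HenGC and SoyGC arrays for KIN82, and vehicle 3 (-4.31) was lower still.

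Ribosome assembly genes held 36 lower values, the highest count of the 40 lists in a list that is also the longest, while the polymerase I and III and the G1 and S phase lists held higher shares (34.1% and 33.3%). Of 139 genes tested, 36 (25.9%) were lower in HenGC at an unadjusted p under 0.05, beside 6.14% of all genes, and 0 were higher. Of the 139, 138 had a negative difference, while 52.8% of all genes had a positive one. The median was -0.27, or -0.49 within slide 3, where all 139 were negative. The list averaged 0.05, -0.30 and -0.16 on HenGC 1 to 3, against 0.06, 0.02 and 0.32 on SoyGC 1 to 3 and -0.31, -0.54 and -1.16 on vehicle 1 to 3. HenGC 1 lay within the SoyGC range, vehicle lay below both preparations, and vehicle 3 stood well below the other vehicle arrays. TSR1, of the small subunit, stood at -0.15, -0.49 and -0.35 in HenGC, against 0.17, -0.00 and 0.15 in SoyGC and -0.46, -0.62 and -0.66 in vehicle, with a difference of -0.44 ± 0.12. The helicase gene DHR2 (-0.56 ± 0.16), the methyltransferase gene EMG1 (-0.45 ± 0.13) and UTP15, of the early processome (-0.33 ± 0.09), also had groups that did not overlap, with adjusted p of 0.258 to 0.266 in limma.

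RNA polymerase I and III genes had 14 of 41 members (34.1%) lower and 0 higher at an unadjusted p under 0.05. These stand beside 6.14% of all genes lower and 8.04% higher. The median was -0.23, and the lower members included the polymerase I subunit gene RPA49 (-0.43 ± 0.12) and its initiation factor gene RRN3 (-0.34 ± 0.11). Cytosolic ribosomal proteins had 17 of 137 (12.4%) lower and 0 higher, beside the same shares of all genes. Their median was -0.14, and 127 differences were negative, while 52.8% of all genes had a positive difference. Many ribosomal protein genes are pairs of near-identical copies, such as RPS11A (-0.29 ± 0.10), whose signals may include the other copy.

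G1 and S phase genes were also lower, with little spread between arrays. Of 54 genes tested, 18 (33.3%) were lower at an unadjusted p under 0.05, beside 6.14% of all genes, and 0 were higher. All HenGC arrays lay below all SoyGC arrays in 23 of the 54, beside 11.1% of all genes, and the median was -0.21 (-0.27 within slide 3). PCL1, a cyclin that works with the kinase Pho85 in G1, stood at -1.49, -1.62 and -1.51 in HenGC, against -0.88, -0.93 and -0.88 in SoyGC and -1.14, -1.12 and -1.36 in vehicle. The 3 groups did not overlap, and vehicle lay between the preparations. The difference was -0.64 ± 0.09 (95% interval -0.84 to -0.44, adjusted p = 0.21), and over 22 settings it ranged from -0.73 to -0.60.

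CLN2, a G1 cyclin, stood at -3.95, -3.92 and -4.02 in HenGC, against -3.27, -3.45 and -3.38 in SoyGC and -3.55, -3.53 and -4.14 in vehicle. Vehicle 1 and 2 lay nearer SoyGC and vehicle 3 below HenGC. CLB6, a cyclin of S phase, stood at -4.05, -4.24 and -3.97 in HenGC, against -3.36, -3.51 and -3.23 in SoyGC and -3.32, -3.45 and -3.27 in vehicle. For CLB6, SoyGC and vehicle overlapped and HenGC lay apart. The differences were -0.59 ± 0.09 for CLN2 and -0.73 ± 0.11 for CLB6, each with an adjusted p of 0.21.

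Replication genes followed, with CDC45 of the replicative helicase at -0.48 ± 0.09, the flap endonuclease gene RAD27 at -0.47 ± 0.10 and POL30, the sliding clamp, at -0.51 ± 0.11, all with an adjusted p of 0.246 or 0.247. In bulk RNA, fewer cells in G1 and S phase and less of these RNAs per cell cannot be told apart. Mitotic cyclins and G2/M regulators had 2 of 32 genes (6.25%) lower at an unadjusted p under 0.05, near the 6.14% of all genes. None of them were higher, beside 8.04% of all genes, and their median was -0.08. Histones had 0 of 11 in either direction (median 0.05, with the other sign in at least 1 other setting).

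**Figure D4:**
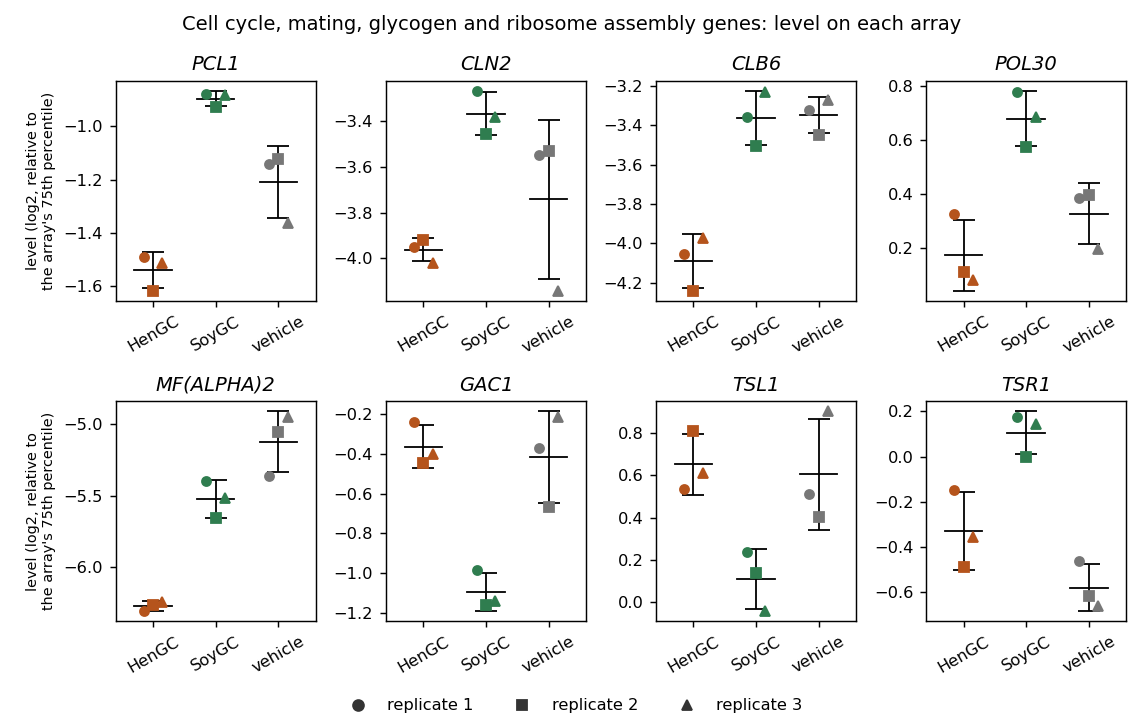
Levels of 8 genes of the cell cycle, mating, reserves and ribosome assembly (log2 relative to the 75th percentile of the array) in HenGC, SoyGC and vehicle, with a symbol per array by replicate number, the mean as a long bar and ±1 SD as the error bar (n = 3). For CLB6 and MF(ALPHA)2 the HenGC arrays lay below all SoyGC and vehicle arrays, while for GAC1 HenGC lay with vehicle above SoyGC.

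The alpha-factor genes were the exception among mating genes. MF(ALPHA)2, which haploid alpha cells express and diploids repress, stood at -6.31, -6.26 and -6.24 in HenGC, against -5.40, -5.66 and -5.52 in SoyGC and -5.36, -5.05 and -4.95 in vehicle. It had the smallest p of all genes, with a difference of -0.75 ± 0.10 (95% interval -0.98 to -0.52) and an adjusted p of 0.21. MF(ALPHA)1, a near copy, differed by -0.59 ± 0.13. Both levels were low on every array, and the 2 preparations did not overlap in either gene. The other members of the 23 mating genes tested had 0 higher and 0 lower at an unadjusted p under 0.05, and the median of the list, 0.04, took the other sign in at least 1 other setting. Meiosis and sporulation genes had 5 of 32 higher and 1 lower (median 0.15), with the translation regulator RIM4 at 0.64 ± 0.14. The counts of both lists stand beside 8.04% of all genes higher and 6.14% lower.

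Nutrient uptake lists were mixed, with counts to be read beside 8.04% of all genes higher and 6.14% lower. Hexose transporters and glucose sensors had 5 of 20 genes higher and 0 lower at an unadjusted p under 0.05 (median 0.21), with HXT5, a transporter of slowly growing cells, at 0.91 ± 0.35. Its level was -2.43, -2.87 and -1.29 in HenGC, against -3.21, -2.97 and -3.14 in SoyGC and -2.11, -2.25 and -1.83 in vehicle, so HenGC 3 stood above the rest of its group, and without it the difference was 0.46. Maltose genes had 5 of 14 higher and 0 lower (median 0.33), among them the regulator ZNF1 (0.59 ± 0.17), though the isomaltases such as IMA3 are near-identical copies. Nitrogen permeases and GATA factors had 7 of 48 higher and 1 lower (median 0.13), led by the GATA repressor DAL80 at -2.22, -2.64 and -1.88 in HenGC, against -3.96, -2.95 and -3.24 in SoyGC and -2.61, -2.11 and -3.32 in vehicle (1.13 ± 0.28). SoyGC 1 was the lowest array for that gene.

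Sulfur genes had 3 of 34 higher and 2 lower (median 0.11), close to the 8.04% and 6.14% of all genes. The sulfate permease SUL1 was at 0.68 ± 0.18. The phosphate regulon had 1 of 26 higher and 5 lower (median -0.07), with the acid phosphatases PHO3 (-0.45 ± 0.13), PHO5 (-0.37 ± 0.12), PHO11 (-0.34 ± 0.10) and PHO12 (-0.39 ± 0.11) all below SoyGC on every array, though the 4 sequences are close. Iron and zinc uptake had 5 of 35 higher and 3 lower (median -0.03, with the other sign in at least 1 other setting), with the iron permease FTR1 at -0.49 ± 0.12 and the zinc-responsive IZH1 at 0.71 ± 0.23. Thiamine and vitamin B6 genes had 3 of 20 higher and 1 lower (median 0.14).

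Lists of biosynthesis and fermentation were mixed too, again beside 8.04% of all genes higher and 6.14% lower. Amino acid synthesis under Gcn4 had 0 of 59 higher and 1 lower (median -0.04), and purine and one-carbon genes had 0 of 27 higher and 3 lower (median -0.04), with the adenine deaminase gene AAH1 at -0.50 ± 0.12. Both medians took the other sign in at least 1 other setting. Glycolysis and fermentation had 3 of 29 higher and 0 lower (median 0.08), with GPM2, a minor homologue of phosphoglycerate mutase, at 0.71 ± 0.17. Glycerol genes had 4 of 15 higher and 0 lower (median 0.15), with GUT2 of glycerol use at 0.61 ± 0.14 and GPD1 of its synthesis at 0.37 ± 0.10. Aroma and fusel alcohol genes had 4 of 22 higher and 0 lower (median 0.20), with BDH2, a butanediol dehydrogenase homologue, at 1.85, 1.19 and 1.53 in HenGC, against 0.71, 0.65 and 0.53 in SoyGC and 1.29, 1.29 and 1.72 in vehicle (0.89 ± 0.16, adjusted p = 0.231). For BDH2 the preparations did not overlap, and vehicle lay within the HenGC range.

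Protein quality and surface lists complete the set, with 8.04% of all genes higher and 6.14% lower as the shares to set beside them. Autophagy and vacuolar protease genes had 12 of 43 higher and 0 lower (median 0.27), including the receptor gene ATG39 (0.48 ± 0.10) and the lipase gene ATG15 (0.47 ± 0.10). Chaperones under Hsf1 had 2 of 26 higher and 1 lower (median 0.05), with SSE2 at 0.44 ± 0.12 and HSP82 at 0.43 ± 0.14 (0.28 without SoyGC 1). Genes of protein folding in the ER had 1 of 33 higher and 3 lower (median -0.09), with the exchange factor SIL1 at -0.41 ± 0.09. Antioxidant genes had 2 of 36 higher and 0 lower (median -0.02), and the lowest difference of all genes, that of the peroxidase GPX2, was -0.85 with an interval of -1.92 to 0.23, or -0.51 without HenGC 2 and -1.34 without HenGC 1. Cell wall genes had 5 of 41 higher and 1 lower (median -0.01), with the flocculin gene FLO11 at 0.48 ± 0.09 (adjusted p = 0.231) and PIR3 at 0.57 ± 0.15. The medians of the antioxidant and cell wall lists took the other sign in at least 1 other setting.

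**Figure D5:**
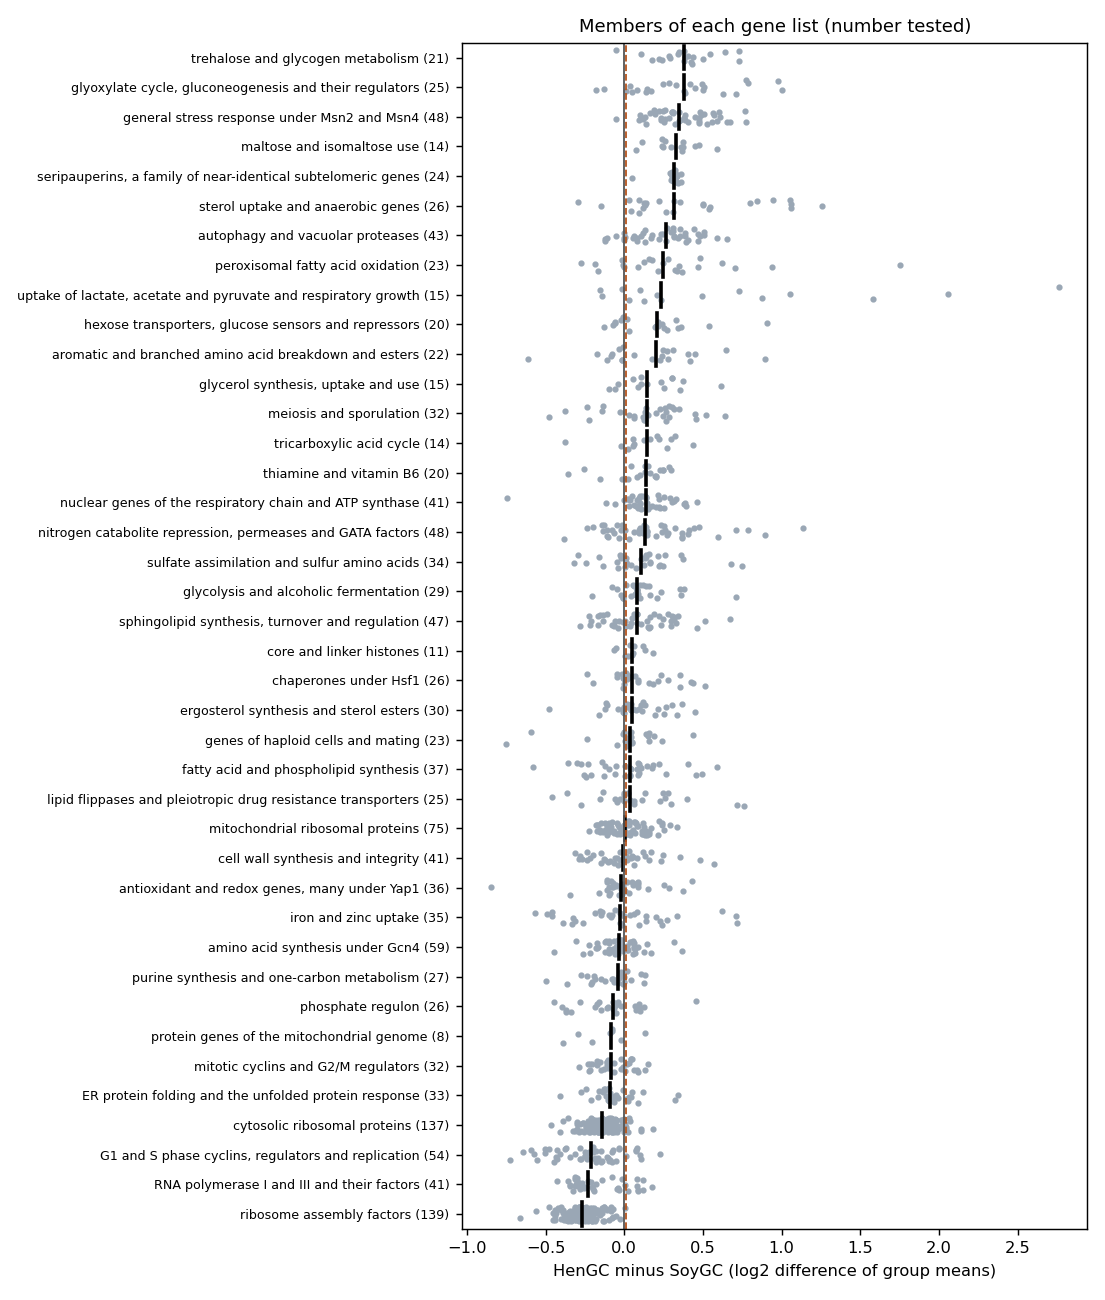
HenGC minus SoyGC difference (log2) of every tested member of the 40 gene lists, with the number tested in brackets, a black bar at each list's median and a dashed line at the median of all genes (0.01). The medians ran from 0.38 in the trehalose and glycogen list to -0.27 in the ribosome assembly list.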

How the data were processed

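RNA was measured on 1-colour Agilent arrays, 1 per sample. The software was Agilent Feature Extraction, version 11.0.1.1, together with R, version 3.0.2, per the submitters' processing notes. The deposited scanner files give the processed signal of each spot, a linear intensity. Per the file headers, background had been subtracted and a trend across the array removed, with no scaling between arrays. The authors' own value table was read as an alternative, and its intensities matched the mean over a probe's 7 spots (relative tolerance 1e-06).

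From these, log2 of the processed signal minus each array's 75th percentile was computed (75th percentile signal 5273 to 7803), leaving out control and outlier spots, and then averaged per probe. To be above background, a probe needed that mark on over 50% of its spots. Probes above background on all 3 arrays of HenGC or SoyGC were tested, with the brightest probe per gene, which gave 5747 of 6199 genes (25 with more than 1 probe). Of 6256 probes, 5765 matched a gene table of assembly R64, 462 kept their open reading frame name and 29 without a name were left out. limma 3.58.1 in R 4.3.3 (lmFit, eBayes, two-sided) was fitted to the 6 arrays, with Benjamini-Hochberg adjustment over all genes and a threshold of 0.05. The number of arrays limits the precision; an exact permutation test of 3 against 3 cannot go below 0.1. The fit was tested on simulated data.

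The members and the 40 lists were chosen with earlier results of these data known, so lists get counts and medians and no test. Genes named were drawn from the 10 with the smallest p in each direction, up to 4 members per list with the largest moderated t, all members of the sphingolipid, sterol uptake and lactate and acetate lists and, chosen after their values were seen, the 17 genes at 2-fold or more, ICL1 and GPX2. Not every gene in these sets is printed, so those named are a selection. Slides come from barcodes and scan days from scan times. Alternatives covered scaling, background, filters, slide, scan day, replicate number, array weights, the prior, several probes and each array left out. Promoter motifs and sequences were not analysed here.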

Additional observations from a re-analysis of the deposited data

How the results depend on the processing

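Over 21 other settings, the count of genes past the threshold in limma stayed at 0 in 20, including all 9 arrays in the fit, quantile or median scaling, the authors' table and scan day 1 alone, which was chosen after seeing the data. With slide as a fixed block it was 2, with 2 higher and 0 lower (FBP1 and ICL1). Leaving out 1 array gave 0 to 0. The replicate block gave 0, with 781 genes higher and 647 lower at an unadjusted p under 0.05, against 462 and 353 without it. Deviations from group means correlated at 0.08, 0.58 and 0.52 for replicates 1, 2 and 3, against -0.67 to 0.17 between arrays of different numbers. Replicates 3 also shared slide 3. HenGC 1 correlated at 0.16 with SoyGC 3 and at 0.08 with SoyGC 1. A gene's deviations sum to 0 within each group, so positive correlations for some pairs push those of other pairs down. The contrast between same and different numbers is partly built in for that reason. The main fit did not pair by number. The values of replicates 2 and 3 leave a pairing possible.

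At an unadjusted p under 0.05, other counts over 1.5 times away were 50 higher and 46 lower in the authors' table, 228 and 96 with slide fixed, 303 and 103 on scan day 1 alone, 126 lower without HenGC 2 and 178 lower without SoyGC 3. Among named genes, FBP1 and ICL1 alone passed in another setting. The medians of the carbon source, stress, reserve, sterol uptake, ribosome and G1 and S phase lists kept their sign in every setting: 0.26 to 0.39 for general stress, -0.49 to -0.16 for ribosome assembly and -0.30 to -0.18 for G1 and S phase. In the authors' table, which is not scaled between arrays, the median of all genes was -0.07, a shift of -0.09, so list medians just above 0 fell under it there along with all genes. The ergosterol synthesis median also changed sign with array weights. That of flippases and drug pumps did so without SoyGC 3, and that of fatty acid and phospholipid synthesis without HenGC 2 and without SoyGC 3. The background correction by normexp was run on median spot signals in place of the mean signals first chosen. The cause of these shifts was not tested. With 3 arrays per group, differences under the interval widths given were not resolved.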

Other observations

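The 3 HenGC arrays were not alike, and the gene groups on which they differed were not the same ones. HenGC 1 was the highest of its group for RGI2 (-2.48, against -4.12 and -5.29), ADY2 (-3.97, against -6.07 and -5.26), JEN1 (-1.68, against -3.29 and -2.35) and POT1 (-2.44, against -3.73 and -3.90), and the lowest for the sterol importer AUS1 (-0.08, against 1.45 and 1.18) and HEM13 (2.41, against 3.69 and 3.13). HenGC 3 was the highest for FBP1, ICL1 and HXT5, while HenGC 2, which shared a slide with HenGC 1, lay lowest in ribosome assembly (-0.30, against 0.05 and -0.16). Within HenGC 32 to 37 genes differed over 2-fold between a pair of arrays, within SoyGC 19 to 98, and between HenGC and SoyGC 10 to 133. SoyGC 2 differed over 2-fold from HenGC 1 in 24 genes and from HenGC 2 in 10, fewer than any pair within HenGC. It differed from HenGC 3 in 34. The first principal component of the 6 arrays held 40.7% of the variance, with HenGC at 5.24, 12.9 and 6.54 and SoyGC at -15.5, 0.46 and -9.64.

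Several genes with small spread belong to none of the lists above. TDA1, a protein kinase gene, stood at -2.26, -2.27 and -2.49 in HenGC, against -2.94, -2.90 and -3.05 in SoyGC and -2.26, -2.42 and -2.26 in vehicle (0.62 ± 0.10). YMR206W, of unknown role, stood at -1.45, -1.30 and -1.34 in HenGC, against -1.87, -1.88 and -1.95 in SoyGC and -2.59, -2.96 and -2.43 in vehicle (0.53 ± 0.09). In TDA1 HenGC lay with vehicle, and in YMR206W HenGC lay farthest from it. TOS2, of the bud site, stood at -3.84, -3.92 and -3.81 in HenGC, against -3.17, -3.46 and -3.32 in SoyGC and -3.30, -3.32 and -3.22 in vehicle (-0.54 ± 0.10), so that HenGC lay apart from both other groups. The adjusted p in limma was 0.21 for TDA1 and YMR206W and 0.246 for TOS2.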
